A study of Homo sapiens with 6 samples.

Results

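The genes described here encode the digestive core of the lysosome: 9 cathepsins, 9 glycosidases, 6 lipid hydrolases and other proteins of the lumen, 5 proteins of the limiting membrane, 5 subunits of the proton pump, and the transcription factors TFEB and TFE3. They were chosen by gene name for these roles, and all 36 were among the 22503 gene rows of the deposited count table. Transcripts were sequenced from the established cell line CAL-27, keratinocyte-like cells of a tongue squamous carcinoma, in 3 libraries treated with DHA for 48 h and 3 given only its solvent, DMSO. The series studies artemisinin derivatives, so DHA is taken to be dihydroartemisinin, to which some artemisinin antimalarials are converted in the body. No dose is given in the sources, and the labels name no genetic change in either group. Whether the 3 libraries of a group were grown as separate cultures is not stated, and p-values therefore reflect only the spread among these libraries, possibly a technical one.

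Lysosomes are acidic organelles in which material from endocytosis and autophagy is broken down. The vacuolar ATPase (V-ATPase), built from a membrane sector V0 and a cytosolic sector V1, pumps in the protons that most luminal enzymes need. Cathepsins cleave proteins, glycosidases trim sugars from glycoproteins, glycolipids and glycogen, and lipases, ceramidases and sphingomyelinases act on lipids. TFEB and TFE3 are basic helix-loop-helix factors that bind a palindromic promoter element shared by many lysosomal genes and enter the nucleus when mTORC1 is inactive, so that their activity is set by location more than by their own transcript.

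Libraries held 35980670 to 38120267 counts over genes, and 3 counts corresponded to 0.0789 to 0.083 CPM (a count relative to the scaled library total). That floor covers counting error only. Every one of the 36 genes passed the filter on low counts, and the lowest, TFEB, had a mean of 376 counts per library. DMSO 2 and DMSO 3 were the closest pair of libraries, and DHA 2 and DHA 3 the most distant pair within a group. All 8 keratinocyte and epithelial markers were tested, and their summed level was 5660 to 7060 CPM under DMSO and 4190 to 4900 CPM under DHA. Of these, KRT5, KRT17, TP63 and CDH1 were lower without overlap, SFN was higher without overlap, and KRT14, EPCAM and PERP overlapped. Of 8 macrophage and leukocyte markers, which mark cells rich in lysosomes, 4 had a row, and their sum was 13.1 to 21.9 CPM under DMSO and 13.3 to 20.3 CPM under DHA. Of these 4, CD14 fell, from 5.64 ± 0.912 to 2.20 ± 0.479 CPM (SD, n = 3, adjusted p = 0.024 by edgeR), while CSF1R and ITGAM were not called and LYZ was too low to test. Of 8 fibroblast markers 7 had a row and summed to 13.6 to 23.5 CPM under DMSO and 9.16 to 13.2 CPM under DHA. Most of this sum was COL1A1, with means of 14.4 and 8.98 CPM. Of 6 endothelial markers 5 had a row and summed to 16.9 to 26.7 and 15.6 to 18.8 CPM. Most of that sum was CDH5, with means of 21.5 and 16.5 CPM. Neither COL1A1 nor CDH5 was called, and both overlapped between the groups. The part of these marker levels in the lysosomal results was not tested. In bulk RNA, fewer cells of a type and less RNA per cell cannot be told apart.

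The comparison of DHA with DMSO asks which lysosomal transcripts an artemisinin derivative alters in these cells. Of the 36 genes, 1 fell, CTSB, and 0 rose by the quasi-likelihood test of edgeR, Benjamini-Hochberg adjusted over 14649 genes. This was 2.78% of the 36, beside 2.7% of all genes tested, 1.1% higher and 1.6% lower, a share near the background. At an unadjusted p under 0.05, 5 were lower and 3 higher in edgeR, beside 10.7% and 9.59% of all genes. DESeq2 called 4 of the 36, beside 7.75% of all genes in that test, and limma-voom 1, beside 2.49%. For 35 of the 36 the 95% interval of the difference lay within a 2-fold change in either direction, and CTSB was the exception.

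**Figure D1:**
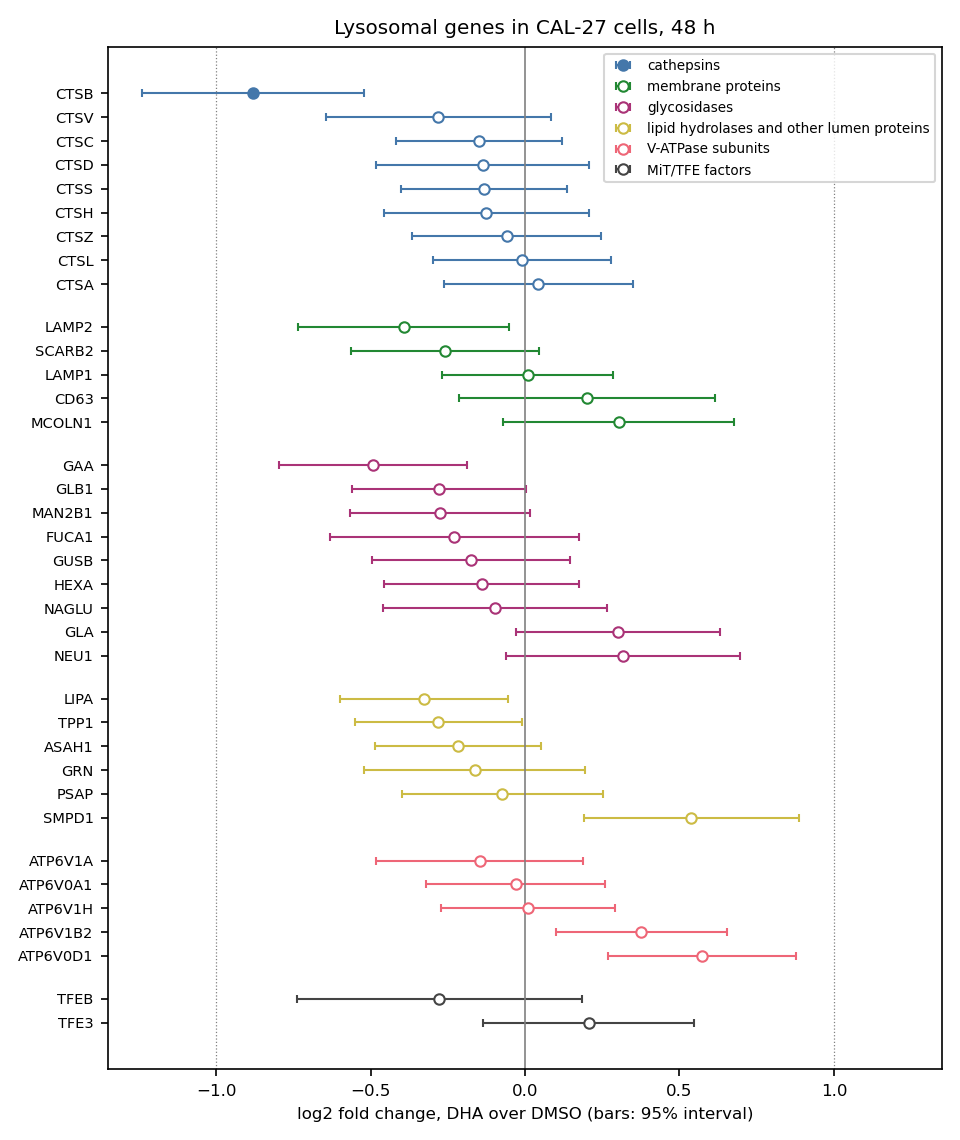
Log2 fold change of DHA over DMSO (x axis) for the 36 lysosomal genes (y axis), grouped and coloured by class, with bars for the 95% interval of the edgeR fit to 3 libraries a group and dotted lines at a 2-fold change. The filled point, CTSB at -0.88, is the only gene past the adjusted threshold, and the V-ATPase genes ATP6V0D1 and ATP6V1B2 and the sphingomyelinase gene SMPD1 lie farthest to the right with intervals above 0.

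TFEB and TFE3 bind the CLEAR element, the letters TCACGTGA with a G before and a C after, and the inner letters CACGTG are also bound by other E-box factors such as USF and MYC. RefSeq promoters of GRCh38.p14, 250 bases before to 50 after the start, were at hand for 26 of the 36 genes, and not for CTSB, CTSS, LAMP2, HEXA, NAGLU, PSAP, ASAH1, ATP6V1A, ATP6V1B2 and ATP6V1H. All 3 motifs read the same on both strands, and each longer one contains the shorter ones. The full element was found in 2 of the 26, TCACGTGA in 5 and CACGTG in 8, or 7.69%, 19.2% and 30.8%. Over all 35116 promoter windows the shares were 0.353%, 0.98% and 7.26%, and over the 11491 tested genes with a promoter 0.862%, 2.19% and 12.2%. One site of each of the 5 genes with TCACGTGA is shown, because these genes include both lower and higher log2 fold changes. Capitals mark the element, and each sequence runs 5′ to 3′ on the gene's strand and ends before the annotated start.
GAA: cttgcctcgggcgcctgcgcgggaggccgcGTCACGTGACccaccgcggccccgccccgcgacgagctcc
MCOLN1: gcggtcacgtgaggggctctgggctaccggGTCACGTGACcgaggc
ATP6V0D1: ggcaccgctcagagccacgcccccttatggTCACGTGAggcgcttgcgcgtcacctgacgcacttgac
LAMP1: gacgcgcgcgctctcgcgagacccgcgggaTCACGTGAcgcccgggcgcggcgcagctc
CTSA: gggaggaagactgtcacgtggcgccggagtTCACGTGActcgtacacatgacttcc
They lie at chr17:80101473-80101542 (plus strand), chr19:7522578-7522623 (plus), chr16:67481180-67481247 (minus), chr13:113297180-113297238 (plus) and chr20:45891279-45891334 (plus).

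The capitals begin 78 bases before the annotated start in GAA, 16 in MCOLN1, 60 in ATP6V0D1, 29 in LAMP1 and 26 in CTSA. GAA holds the full element again 33 bases before its start, and the MCOLN1 line shows a further copy of TCACGTGA in lower case. The log2 fold changes of these 5 genes were -0.49 for GAA, 0.01 for LAMP1, 0.04 for CTSA, 0.30 for MCOLN1 and 0.57 for ATP6V0D1. Genes with the motif thus lay on both sides of 0, and a match is a description of letters, not a bound site.

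CTSB encodes cathepsin B, a cysteine protease with endopeptidase and carboxydipeptidase activity, and was the most abundant of the 36 transcripts per length. It lies on chromosome 8 at 11842524 to 11868087 (GRCh38.p14, 1-based, as are all positions here). Its level was 5152, 4207 and 4029 CPM in DMSO 1 to 3 and 2595, 2655 and 2015 CPM in DHA 1 to 3. All DHA libraries were below all DMSO libraries, with DMSO 1 the highest and DHA 3 the lowest. The log2 fold change was -0.88 ± 0.16 (SE, 95% interval -1.24 to -0.522, adjusted p = 0.0252 by edgeR), so that the mean went from 4463 ± 604 to 2422 ± 353 CPM (SD, n = 3). Ranked by mean CPM over all genes tested, CTSB went from place 10 in DMSO to place 22 in DHA. The call rested on most of the libraries: the edgeR adjusted p was 0.0742 without DMSO 1, 0.0773 without DMSO 2, 0.0593 without DMSO 3 and 0.118 without DHA 1, but 0.0307 without DHA 2 and 0.0287 without DHA 3. The log2 fold change stayed between -0.954 and -0.757 in these fits. Over all genes tested, 395 calls became 178, 46 and 168 without DMSO 1, 2 and 3. They became 16, 189 and 789 without DHA 1, 2 and 3.

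The other 8 cathepsins gave no call. Ratios within a library do not depend on how libraries are scaled. The ratio of CTSB to CTSD reads was 4.17, 3.67 and 3.90 in DMSO 1 to 3 and 2.48, 2.20 and 2.36 in DHA 1 to 3. The ratio of CTSB to PSAP reads, another abundant luminal gene, was 3.33 to 3.43 in DMSO and 1.78 to 2.04 in DHA. Neither ratio overlapped between the groups, and both were chosen after the values were seen and were not tested. Of the 36 genes, 7 (CTSA, CTSD, CD63, HEXA, ASAH1, TPP1 and ATP6V1A) share exon bases with a gene on the opposite strand and 8 with a gene on the same strand. No source used here gives the settings of the counting, neither the strand nor the handling of reads shared between genes. Counts of these genes may therefore miss reads of the shared bases or hold reads of the neighbours.

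CTSD, the main aspartic protease of the lysosome, stood at 1236, 1147 and 1034 CPM under DMSO and 1047, 1206 and 853 CPM under DHA. The groups overlapped (log2 fold change -0.14 ± 0.15, SE), and the interval ran from -0.482 to 0.207. CTSL, an endopeptidase gene whose counts are uncertain where reads are shared with its close paralog CTSV, was at 158 ± 3.63 CPM under DMSO and 157 ± 19.2 CPM under DHA, with an interval from -0.299 to 0.278. CTSZ, a carboxypeptidase gene, and CTSA, which encodes a serine carboxypeptidase that also stabilises the enzymes made from GLB1 and NEU1, had log2 fold changes of -0.06 and 0.04. CTSC, whose product activates serine proteases by removing dipeptides, and CTSH, an aminopeptidase gene, had -0.15 and -0.13.

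The lowest cathepsins were CTSS and CTSV. CTSS, best known for antigen processing, was at 46.3, 47.1 and 46.4 CPM under DMSO and 40.5, 43.8 and 43.1 CPM under DHA. Its groups did not overlap, although the fold change was small (log2 fold change -0.13 ± 0.12, SE, adjusted p = 0.543 by edgeR). CTSV, known from thymus and keratinising epithelium, was at 32.1 ± 2.48 CPM under DMSO and 26.4 ± 4.65 CPM under DHA (log2 fold change -0.28, adjusted p = 0.351 by edgeR). In 8 of the 9 cathepsins DHA 3 was the lowest of the 6 libraries. Without DHA 3 the median log2 fold change of the cathepsins went from -0.13 to -0.00725.

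Levels of different genes were compared as CPM per kilobase of exon (union of exons in GENCODE 29). On this scale CTSB stood at 1071 ± 145 in DMSO and 581.5 ± 84.8 in DHA (SD, n = 3), and CTSD at 536 ± 47.5 and 488 ± 83.1. In DMSO the libraries ran from 967 to 1237 for CTSB and from 487 to 582 for CTSD, and in DHA the ranges overlapped, at 484 to 637.5 and 402 to 568. CTSB made up 52.7% to 56.9% of the summed cathepsin level per kilobase in DMSO and 40.0% to 42.4% in DHA. CTSD took 26.8% to 28.2% and then 33.6% to 35.6%, CTSZ 5.05% and then 6.69% on average, and CTSA 4.33% and then 6.17%. Shares add up to the whole, so the share of the others had to grow when that of CTSB shrank. Without division by length the mean share of CTSB was 66.8% and 54.2%.

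**Figure D2:**
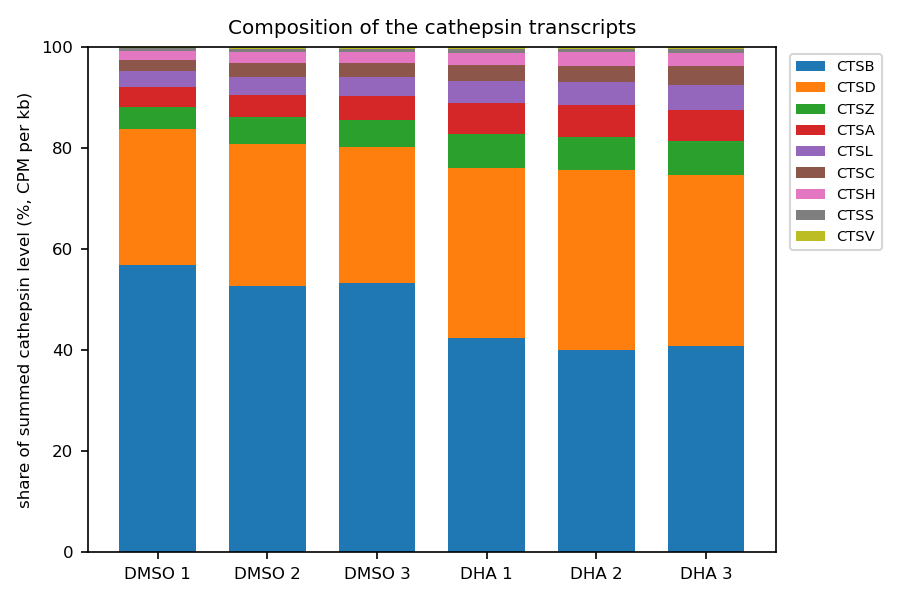
Share of each of the 9 cathepsin genes in the summed cathepsin level (y axis, percent of CPM per kilobase) in each of the 6 libraries (x axis). The bottom segment, CTSB, reaches 52.7% to 56.9% in DMSO and 40.0% to 42.4% in DHA, and the segment above it is CTSD.

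Among the 9 glycosidase genes 0 passed the threshold in edgeR and limma-voom, beside 2.7% and 2.49% of all genes. In DESeq2 1 passed, GAA, beside 7.75%. At an unadjusted p under 0.05 in edgeR 1 (11.1%) was lower, near the 10.7% of all genes. GAA, the acid alpha-glucosidase that degrades glycogen, lies on chromosome 17 at 80101581 to 80119881 and was the most abundant glycosidase per kilobase in DMSO. It was at 281, 242 and 225 CPM in DMSO 1 to 3 and 180, 193 and 159 CPM in DHA 1 to 3. The groups did not overlap, and DMSO 1 was the highest and DHA 3 the lowest. The log2 fold change was -0.49 ± 0.14 (SE, adjusted p = 0.0929 by edgeR), with an interval from -0.798 to -0.188.

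GLB1, the beta-galactosidase gene, and MAN2B1, an alpha-mannosidase gene, were also without overlap and lower in DHA. GLB1 was at 52.4 to 56.8 CPM under DMSO and 41.5 to 48.9 CPM under DHA, and MAN2B1 at 138 to 161 CPM and 109 to 131 CPM (adjusted p = 0.252 and 0.268 by edgeR). GLA, which encodes the alpha-galactosidase that acts on globotriaosylceramide, went the other way without overlap, from 37.7 to 48.5 CPM in DMSO to 49.4 to 60.6 CPM in DHA (adjusted p = 0.282 by edgeR). The gap between its groups was narrow, with DMSO 3 at 48.5 CPM and DHA 3 at 49.4 CPM. The sialidase gene NEU1 was at 88.9 ± 17.1 CPM under DMSO and 111 ± 14.9 CPM under DHA, with overlapping groups (adjusted p = 0.311 by edgeR). GUSB, HEXA, NAGLU and FUCA1, for beta-glucuronidase, the hexosaminidase alpha chain, an acetylglucosaminidase and a fucosidase, had log2 fold changes of -0.17, -0.14, -0.10 and -0.23, and their groups overlapped.

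Of the 6 genes for lipid hydrolases and other luminal proteins, 0 passed in edgeR and limma-voom, beside 2.7% and 2.49% of all genes. In DESeq2 1 passed, SMPD1, beside 7.75%. At an unadjusted p under 0.05 in edgeR LIPA and TPP1 (33.3%) were lower and SMPD1 (16.7%) higher, beside 10.7% and 9.59% of all genes. SMPD1, the acid sphingomyelinase gene on chromosome 11 at 6390474 to 6394996, was at 16.4, 14.4 and 14.7 CPM in DMSO 1 to 3 and 23.1, 24.5 and 18.6 CPM in DHA 1 to 3. The groups did not overlap (log2 fold change 0.54 ± 0.16, SE, adjusted p = 0.104 by edgeR). DHA 3 was the closest to DMSO, and without it SMPD1 passed the edgeR threshold with a log2 fold change of 0.66.

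LIPA, the acid lipase that frees cholesterol from its esters, was at 229, 199 and 200.3 CPM under DMSO and 172, 156 and 173 CPM under DHA (log2 fold change -0.33 ± 0.12, SE, adjusted p = 0.18 by edgeR). TPP1, a tripeptidyl peptidase gene, was at 179, 159 and 152 CPM under DMSO and 138, 131 and 135 CPM under DHA (log2 fold change -0.28, adjusted p = 0.23 by edgeR). ASAH1, for acid ceramidase, was at 93.8 to 100.02 CPM and 76.7 to 87.8 CPM. In these genes the groups did not overlap, and DHA 3 was not the lowest library.

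PSAP, the precursor of the saposins that present sphingolipids to their hydrolases, lies on chromosome 10 at 71816298 to 71851251 and was the most abundant of this class. It was at 1536, 1263 and 1175 CPM under DMSO and 1274, 1371 and 1130 CPM under DHA. The groups overlapped, and the interval of its log2 fold change ran from -0.4 to 0.252. GRN, the progranulin gene, was at 541 ± 43.7 CPM under DMSO and 483 ± 93.8 CPM under DHA, and its groups overlapped.

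**Figure D3:**
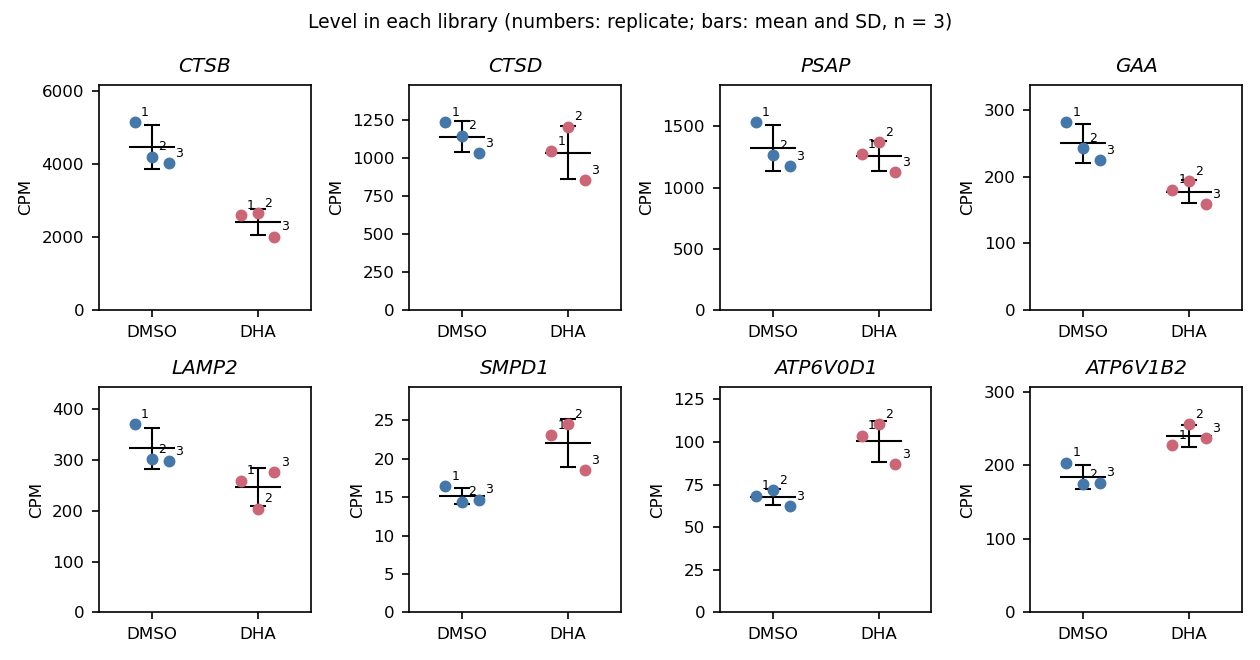
CPM (y axis, from 0) of 8 lysosomal genes in the 3 DMSO and 3 DHA libraries (x axis); points are libraries numbered by replicate, and bars give the mean and SD. CTSB, GAA, LAMP2, SMPD1, ATP6V0D1 and ATP6V1B2 show no overlap between the groups, while CTSD and PSAP overlap.

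The 5 membrane genes gave 0 calls in edgeR, DESeq2 and limma-voom, beside 2.7%, 7.75% and 2.49% of all genes. At an unadjusted p under 0.05 in edgeR 1 (20.0%), LAMP2, was lower, beside 10.7% of all genes. LAMP1 and LAMP2 encode the major glycoproteins of the lysosomal membrane, and LAMP2 also serves in chaperone-mediated autophagy. LAMP1, on chromosome 13 at 113297239 to 113323672, was the most abundant per kilobase. It was at 474, 440 and 418 CPM under DMSO and 453, 479 and 408 CPM under DHA, overlapping, with an interval of the log2 fold change from -0.268 to 0.286. LAMP2 was at 369, 302 and 298 CPM under DMSO and 259, 204 and 275 CPM under DHA. Its groups did not overlap, and DHA 2 was the lowest (log2 fold change -0.39 ± 0.15, SE, adjusted p = 0.193 by edgeR).

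SCARB2, an abundant glycoprotein of the lysosomal membrane, was at 148 to 183 CPM under DMSO and 121 to 146 CPM under DHA, without overlap (adjusted p = 0.307 by edgeR). The tetraspanin gene CD63 was at 318 to 327 CPM under DMSO and 270 to 472 CPM under DHA, a far wider spread in DHA, with DHA 2 the highest and DHA 3 the lowest of all libraries. Its log2 fold change was 0.20, and -0.0129 without DHA 2. MCOLN1, the calcium channel mucolipin 1, was at 12.0, 15.5 and 12.8 CPM under DMSO and 15.9, 18.9 and 14.9 CPM under DHA, with overlap of DMSO 2 and DHA 3.

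The 5 proton pump genes gave 0 calls in edgeR and limma-voom, beside 2.7% and 2.49% of all genes. In DESeq2 they gave 1, ATP6V0D1, beside 7.75%. At an unadjusted p under 0.05 in edgeR 2 (40.0%) were higher, beside 9.59% of all genes. ATP6V0D1, the d subunit that joins the central rotor to V0, lies on chromosome 16 at 67438019 to 67481157 and had the largest positive fold change of the 36. It was at 68.5, 71.6 and 62.3 CPM in DMSO 1 to 3 and 104, 110.3 and 87.1 CPM in DHA 1 to 3. The groups did not overlap, and DHA 3 was again the lowest DHA library. The log2 fold change was 0.57 ± 0.14 (SE, 95% interval 0.268 to 0.878, adjusted p = 0.061 by edgeR). The call was made without DHA 3 (adjusted p = 0.0273 by edgeR), with no filter and in DESeq2.

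ATP6V1B2, the B subunit of the catalytic head, on chromosome 8 at 20197381 to 20221696, was at 204, 174 and 176 CPM under DMSO and 227, 256 and 237 CPM under DHA. The groups did not overlap (log2 fold change 0.38 ± 0.12, SE, adjusted p = 0.139 by edgeR). Its partner in the head, ATP6V1A, was at 166, 166 and 174 CPM under DMSO and 150.3, 125 and 182 CPM under DHA, so its DHA libraries lay on both sides of DMSO. The ratio of ATP6V1B2 to ATP6V1A reads was 1.02 to 1.23 in DMSO and 1.30 to 2.05 in DHA. This pair was not planned before the values were seen, and its ratio was not tested. ATP6V0A1, an isoform of the proton channel subunit, and ATP6V1H, a regulatory subunit, had log2 fold changes of -0.03 and 0.01 with overlapping groups.

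The remaining pump genes came from a list of 19, of which 14 passed the filter. With the 5 above this made 19 tested genes of 23 in the table, and 15 of the 19 had a log2 fold change above 0, beside 50.3% of all genes, with a median of 0.283 beside 0.00 over all genes tested. In edgeR 0 of them passed, and 7 were higher and 1 lower at an unadjusted p under 0.05, beside 9.59% and 10.7% of all genes. DESeq2 called ATP6V0D1 and ATP6V0B, beside 7.75% of all genes in that test. In 7 of the 19, or 36.8%, all DHA libraries were above all DMSO libraries, beside 14.3% of all genes tested, and in 1, ATP6AP2, all were below, beside 13.5%. The 7 were ATP6V0B, ATP6V0D1 and ATP6V0E2 of V0 and ATP6V1B2, ATP6V1D, ATP6V1E1 and ATP6V1G1 of V1. ATP6V0B, the c'' ring subunit, was at 90.2 ± 13.9 CPM under DMSO and 137 ± 24.3 CPM under DHA (log2 fold change 0.61 ± 0.17, SE, adjusted p = 0.0967 by edgeR). The medians were 0.314 for the 7 tested V0 genes and 0.324 for the 10 tested V1 genes, while both accessory genes, ATP6AP1 and ATP6AP2, were below 0.

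**Figure D4:**
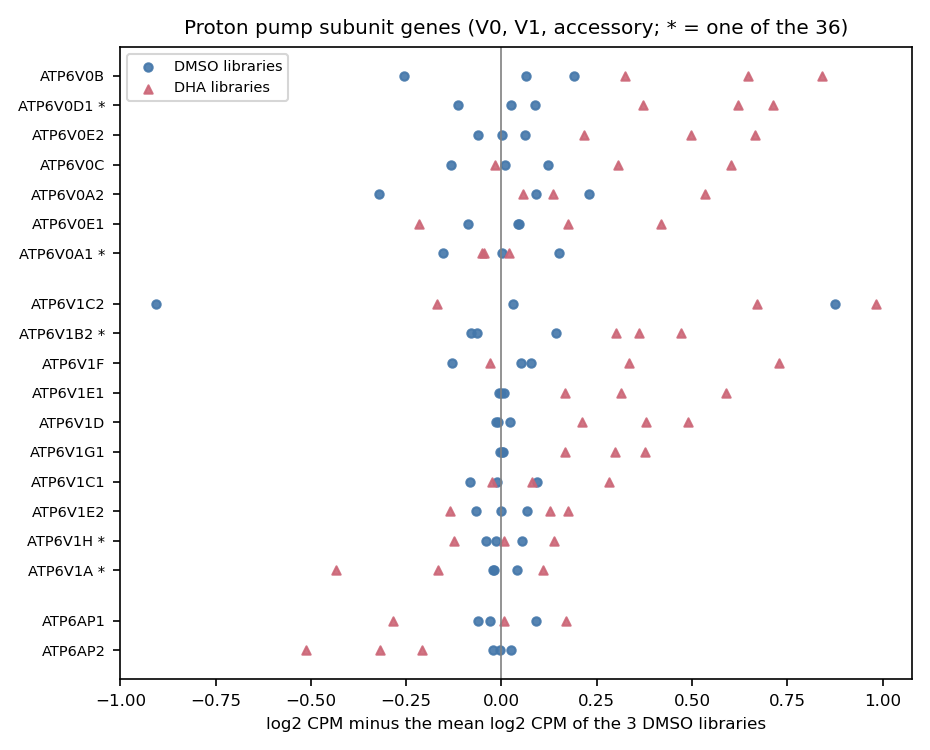
Log2 CPM of each library minus the mean of the 3 DMSO libraries (x axis) for the 19 tested genes of the V-ATPase (y axis; V0, V1 and accessory proteins from top to bottom; asterisks mark the 5 chosen by name). In 7 genes the 3 DHA triangles lie to the right of all DMSO circles, and in ATP6AP2 they lie to the left.

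TFEB and TFE3 were unequal in level and neither passed. TFEB, on chromosome 6 at 41683978 to 41736223, was at 11.8, 10.8 and 10.8 CPM under DMSO and 8.80, 11.8 and 6.94 CPM under DHA. It was the lowest of the 36 genes per kilobase in both groups. TFE3, on chromosome X at 49028726 to 49043357, was at 66.0, 49.4 and 48.9 CPM under DMSO and 65.8, 65.7 and 58.1 CPM under DHA. Both overlapped between the groups, and the log2 fold changes were -0.28 ± 0.21 and 0.21 ± 0.15 (SE, adjusted p = 0.46 each by edgeR). The ratio of TFE3 to TFEB reads was 4.52 to 5.62 in DMSO and 5.56 to 8.37 in DHA, with overlap, and was not tested. MITF, another factor of the family, was at 2.72 ± 0.231 CPM under DMSO and 2.79 ± 0.758 CPM under DHA.

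Set side by side, the classes differed in their medians, which were -0.13 for the cathepsins, -0.17 for the glycosidases, -0.19 for the other luminal genes, 0.01 for the membrane genes, 0.01 for the 5 pump genes and -0.04 for the factors. With upper-quartile scaling the membrane and pump medians turned negative, to -0.02 each, and with unscaled totals or a minimum mean of 5 CPM to -0.01 each. Without DHA 2 the membrane median was -0.05 and the pump median -0.02, without DMSO 3 the membrane median was -0.03, and without DMSO 2 the pump median was -0.01. The median of the factors was 0.06 without DMSO 1 and 0.08 without DHA 3. These differences between classes were not tested. Over the 36 genes the median was -0.14, and 25 had a log2 fold change below 0, or 69.4% beside 49.7% of all genes tested. In 10 of the 36, or 27.8%, all DHA libraries were below all DMSO libraries, beside 13.5% of all genes, and in 4, or 11.1%, all were above, beside 14.3%. The 10 were CTSB, CTSS, GLB1, MAN2B1, GAA, LIPA, ASAH1, TPP1, LAMP2 and SCARB2, and the 4 were GLA, SMPD1, ATP6V0D1 and ATP6V1B2. With DHA 3 left out 8 of the 36 were above without overlap, beside 25.1% of all genes, and 11 were below, beside 25.3%. With DHA 2 left out 4 were above, beside 17.9%, and 17 were below, beside 17.2%.

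The median over the 36 genes depended on DHA 3. Against the DMSO mean it was -0.121 in DHA 1, 0.0736 in DHA 2 and -0.226 in DHA 3, and it went to -0.0111 in the fit without DHA 3. DHA 3 was the lowest of the 6 libraries in 21 of the 36 genes, or 58.3%, beside 18.6% of all genes tested. DMSO 1 was the highest in 15, or 41.7%, beside 26.2%. Of the 6 classes, only that of lipid hydrolases and other luminal proteins had all DHA medians below all DMSO medians. Its medians were -0.152, -0.128 and -0.246 in DHA 1 to 3 and 0.126, -0.0484 and -0.0803 in DMSO 1 to 3. The same order held in the lists, described below, of other proteases (DHA -0.257, -0.136 and -0.361), other hydrolases and cofactors, and other membrane proteins. In the list of other pump genes all DHA medians were above all DMSO medians. The part of a single library in the class medians beyond these values was not tested.

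**Figure D5:**
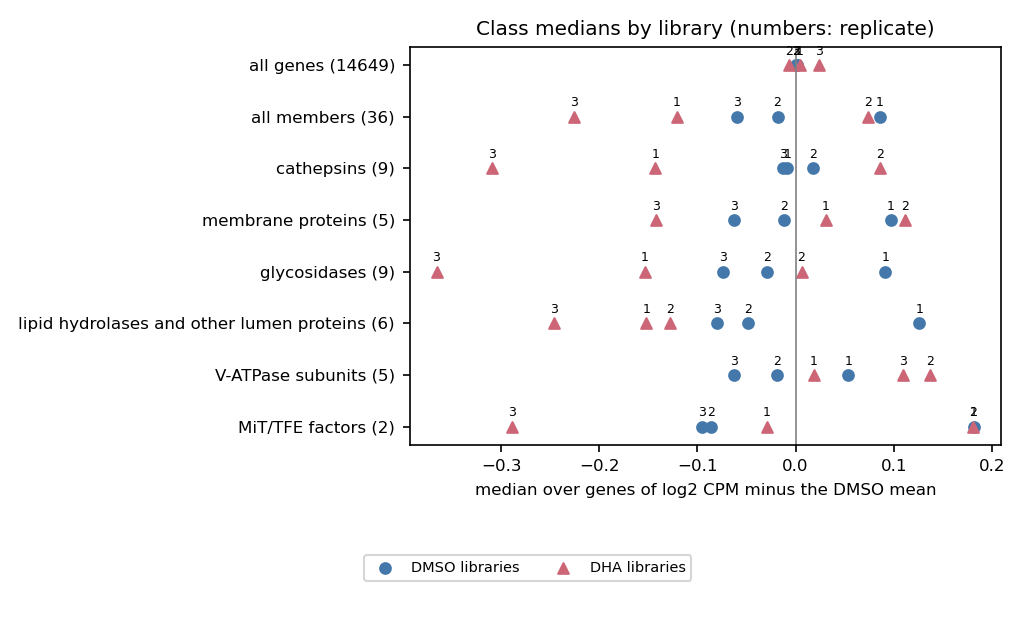
Median over the genes of a class of log2 CPM minus the DMSO mean (x axis) in each library (circles, DMSO; triangles, DHA; numbers, replicate), for all genes, all 36 lysosomal genes and the 6 classes (y axis, number of genes in brackets). DHA 3 lies leftmost in 6 of the rows for lysosomal genes, at -0.226 for all 36, while DHA 2 lies at 0.0736.

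Other lysosomal genes were taken from 7 lists with 107 entries, of which 103 were in the table and 96 passed the filter. In edgeR 1 of the 96 rose, LAMP3, and 0 fell, or 1.04% beside 1.1% of all genes higher. LAMP3, an inducible LAMP glycoprotein, was at 40.3, 41.8 and 41.2 CPM under DMSO and 60.6, 55.8 and 72.4 CPM under DHA, without overlap (log2 fold change 0.61 ± 0.14, SE, adjusted p = 0.049 by edgeR). The edgeR adjusted p was 0.101 without DMSO 1, 0.164 without DMSO 2, 0.132 without DMSO 3 and 0.172 without DHA 1, and 0.0461 and 0.0484 without DHA 2 and DHA 3. Over all genes, fits without a DMSO library or DHA 1 gave 16 to 178 calls, beside 395 with all libraries. The LAMP3 call was also lost with upper-quartile scaling (0.0511), unscaled totals (0.0786) and a minimum mean of 5 CPM (0.0551) in edgeR, and in limma-voom (adjusted p = 0.0548). CTNS, the cystine exporter of the lysosome, was at 12.6 ± 2.87 CPM under DMSO and 21.2 ± 1.43 CPM under DHA (adjusted p = 0.0684 by edgeR). LAMP3 and CTNS belong to the list of other membrane proteins. Of its 20 tested genes 14 (70.0%) were below 0, beside 49.7% of all genes. In 3 (15.0%) DHA was higher without overlap, beside 14.3%, and in 3 (15.0%) lower, beside 13.5%.

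Proteases, hydrolases and cofactors outside the 36 were mostly below 0. All 8 tested proteases had negative log2 fold changes, beside 49.7% of all genes tested, and in 6 of them (75%) the DHA libraries were lower without overlap, beside 13.5%. SCPEP1, a carboxypeptidase gene, was at 204 ± 19.9 CPM under DMSO and 149 ± 16.5 CPM under DHA (adjusted p = 0.114 by edgeR). Of 25 tested hydrolases and cofactors 20 (80.0%) were below 0 and 9 (36%) were lower without overlap, against the same background shares. IDUA, the iduronidase of heparan and dermatan sulfate breakdown, was at 10.7 ± 0.817 CPM under DMSO and 6.43 ± 0.801 CPM under DHA (log2 fold change -0.74 ± 0.17, SE, adjusted p = 0.0566 by edgeR), and passed with unscaled library totals and in DESeq2. Pooled after their values were seen, the 57 tested luminal genes of both kinds had a median log2 fold change of -0.148, 1 call, CTSB, and 23 genes, or 40.4%, lower without overlap, beside 13.5% of all genes. In 2 of the 57, or 3.51%, DHA was higher without overlap, beside 14.3%. With DHA 3 left out 24 of the 57 were lower without overlap, beside 25.3% of all genes. With DHA 2 left out 33 were lower, beside 17.2%. DHA 3 was the lowest of the 6 libraries in 7 of the 8 other proteases and 16 of the 25 other hydrolases and cofactors, beside 18.6% of all genes. The choice of this pool makes its shares a description only.

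Genes of nutrient sensing at the lysosome and of sorting gave 0 calls in edgeR. Among the 15 tested of the first list, 3 (20.0%) were higher at an unadjusted p under 0.05 in edgeR and 0 lower, beside 9.59% and 10.7% of all genes. LAMTOR1, which anchors the Ragulator complex, was at 75.4 ± 2.68 CPM under DMSO and 111 ± 23.0 CPM under DHA (adjusted p = 0.103 by edgeR). The 4 tested cystatins, which inhibit cysteine cathepsins such as cathepsin B, were all above 0 without a call, beside 50.3% of all genes. All 4 overlapped between the groups. Their median against the DMSO mean differed between DHA libraries, at 0.0796, 0.54 and -0.181 in DHA 1 to 3. CSTB, the cystatin B gene, was at 281 ± 40.6 CPM under DMSO and 375 ± 85.8 CPM under DHA, with overlapping groups (adjusted p = 0.241 by edgeR). The 10 sorting genes had a median of -0.03 and no gene at an unadjusted p under 0.05, HGS having the lowest (adjusted p = 0.286 by edgeR).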

How the data were processed

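RNA-seq counts of CAL-27 cells after 48 h in DMSO or DHA, 3 libraries each, were taken from the table of whole-number gene counts deposited by the authors. The submitters' processing notes name fastp, HISAT2, HTSeq, R 3.2.0 and the build GRCh38, without settings. Groups and replicate numbers came from the sample titles. Low genes were removed with filterByExpr of edgeR at a minimum count of 10, libraries were scaled by TMM, and DHA was compared with DMSO by the quasi-likelihood test of edgeR 4.0.16 (R 4.3.3) with Benjamini-Hochberg adjustment over 14649 genes and a threshold of 0.05. The script was tested on simulated data. Intervals are at 95%. The biological coefficient of variation was 18.5%.

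Alternatives were DESeq2 1.42.0, limma-voom (limma 3.58.1), other scalings and filters, a replicate term and leaving out each library. Leaving out libraries from the counts of genes without overlap was added after seeing the data. The 36 genes and all lists were chosen with earlier results of these data known. Values in every library are given for genes past the threshold, the 3 genes of largest fold change otherwise, the highest gene of each class, TFEB and TFE3. Of the wider lists, genes past the threshold or of lowest p are named. Other genes named were chosen after their values were seen. Levels between genes are CPM per kilobase of exon in GENCODE 29, and positions and promoters are those of RefSeq on GRCh38.p14. 1 gene of the wider lists is not reported here by name.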

Additional observations from a re-analysis of the deposited data

How the results depend on the processing

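For the 36 genes and LAMP3, 518 alternative fits were read. In 496 the gene stayed on its side of the threshold, in 12 a call was lost and in 9 gained. In 1 an uncalled gene, CD63, changed sign by at least the median SE of the 36 genes (to -0.01 without DHA 2). In 0 a called gene changed sign, and uncalled genes near 0 could change sign. Shifts of uncalled genes without a change of sign were not graded by size. CTSB kept its call under every scaling, filter and tool run, with adjusted p from 4.1e-05 in DESeq2 to 0.0378 with a minimum mean of 5 CPM, and lost it on leaving out any DMSO library or DHA 1. Calls among the 36 genes were 0 higher and 1 lower. They were 1 higher with no filter, 2 higher and 2 lower in DESeq2, and 0 to 2 higher and 0 to 1 lower when each library was left out. Among the other lysosomal genes 1 higher and 0 lower became 0 higher with upper-quartile scaling, with a minimum mean of 5 CPM and in limma-voom, 0 higher and 1 lower with unscaled totals, 2 higher with no filter, 4 higher and 3 lower in DESeq2, and 0 to 3 higher when each library was left out. Genes of the 36 without overlap numbered 4 to 8 higher and 10 to 17 lower when each library was left out. Over all genes 395 calls (161 higher, 234 lower) became 381 (126 higher, 255 lower) with upper-quartile scaling, 649 with no filter, 251 with a minimum mean of 5 CPM, 1135 in DESeq2 and 16 to 789 when each library was left out. The cause of these shifts was not tested.

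The labels number the replicates alike in both groups but do not say that the numbers pair libraries. Same-numbered libraries had correlations of deviations of 0.258, 0.119 and -0.0397 for replicates 1, 2 and 3. With 3 libraries a group these values cannot settle whether libraries were paired. With a replicate block 1272 genes were called, with 2 higher (SMPD1 and ATP6V0D1) and 2 lower (CTSB and GAA) of the 36 and 5 higher and 2 lower of the other lysosomal genes. Not every library correlated best with its own number. The 95% interval of TFEB, the lowest of the 36 at a mean of 376 counts, ran from -0.739 to 0.184 on the log2 scale, and the part of depth in its width was not tested.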
